A study of Mus musculus with 6 samples.

Results

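The genes described here make prostaglandins from arachidonic acid or receive one of them, prostaglandin E2 (PGE2). Members were chosen by name, 10 synthase and receptor genes, of which 9 had a row among the 30071 genes of the deposited table: Ptgs1, Ptgs2, Ptges, Ptges2, Ptges3, Ptgds, Ptgis, Ptger1 and Ptger4. The other member, Ptger2, was not analysed here. Of the 9, 7 had enough counts to be tested, as did 18177 genes of the whole table. The 2 groups were MC3T3-E1 cells (pre-osteoblasts, an established mouse line) given supernatant of RAW264.7 cells, a mouse macrophage line, on polyetheretherketone (PEEK) with a nano- and microstructured surface (3 libraries), and the same cells on that surface alone (3 libraries). PEEK is an implant polymer, and all 6 libraries share the surface and the cell line. No time in culture, no supernatant dose and no surface on which the RAW264.7 cells grew appears in the sources used here, and both are cell lines rather than tissue.

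Cyclooxygenases turn arachidonic acid into the common precursor prostaglandin H2. Terminal synthases then convert that precursor into PGE2, prostaglandin D2 or prostacyclin, which act through receptors on the cell surface. In bone, osteoblasts are a known source of PGE2, the inducible cyclooxygenase gene Ptgs2 answers to cytokines and to mechanical load, and the receptor encoded by Ptger4 is known for its part in bone formation and osteoclast support.

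The sequence upstream of the annotated starts of both cyclooxygenase genes is shown first. The windows come from RefSeq on GRCm38.p6, a different build from that of the deposited table, and each runs 5′ to 3′ over the 250 bases before the start. They are Ptgs2 at chr1:150099781-150100030 and Ptgs1 at chr2:36230176-36230425, both on the plus strand, and then a short stretch just inside the annotated start of Ptgs2, at chr1:150100038-150100061. Capitals mark letters that matched a searched motif.
Ptgs2: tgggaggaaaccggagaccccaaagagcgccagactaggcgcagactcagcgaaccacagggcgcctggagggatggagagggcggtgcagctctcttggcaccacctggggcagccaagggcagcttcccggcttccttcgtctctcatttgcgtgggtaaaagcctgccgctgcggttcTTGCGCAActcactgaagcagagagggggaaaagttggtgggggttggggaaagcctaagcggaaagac
Ptgs1: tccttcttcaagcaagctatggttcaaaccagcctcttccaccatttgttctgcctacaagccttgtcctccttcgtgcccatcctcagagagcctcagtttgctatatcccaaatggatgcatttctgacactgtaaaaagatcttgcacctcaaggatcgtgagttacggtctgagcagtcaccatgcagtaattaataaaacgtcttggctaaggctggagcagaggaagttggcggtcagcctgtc
Ptgs2 past the start: ccactaCGTCACGTGgagtccgct

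On both strands, 4 motifs were searched in the 300-base windows from 250 bases before to 50 bases after the start: the C/EBP palindrome TTGCGCAA, the E-box CACGTG, the short core of the cAMP response element TGACG and the TATA box TATAAA. The Ptgs2 window held TTGCGCAA, beginning 69 bases before the start, and this palindrome occurred in 60 of 32851 RefSeq windows of that length (0.183%). It also held CACGTG, 16 bases past the start, and TGACG read on the minus strand, 13 bases past the start, the last 2 overlapping each other. CACGTG occurred in 7.15% and TGACG in 20.8% of all windows. The Ptgs1 window held none of the 4 motifs. TATAAA (13.6% of windows) occurred in no member window of the 8 members with a RefSeq entry. A match describes letters only.

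Depth was similar across the series, with 74927500 to 80861720 counts per library with supernatant and 76895736 to 82803173 on PEEK alone. By mean correlation over log2 CPM of tested genes, 1 library was nearer to the other group than to its own. Replicate 1 with supernatant had 0.976 with the other libraries of its group and 0.979 with the PEEK alone libraries. All 10 listed osteoblast markers had counts, although the late marker Bglap was at 0 in 3 libraries, and their summed level was 784 to 1101 FPKM with supernatant and 975 to 1140 FPKM on PEEK alone, led by Col1a2. Of 15 listed macrophage markers 10 were in the table, summing to 4.91 to 7.15 FPKM with supernatant and 5.92 to 8.13 FPKM on PEEK alone, mostly Cd14 and Cd68. The leukocyte marker Ptprc had 4 counts in 1 library with supernatant and 0 in the other 5, and Csf1r, the macrophage growth factor receptor, did not exceed 0.0946 FPKM.

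No member passed the test. With edgeR's quasi-likelihood test and Benjamini-Hochberg adjustment over all genes, 0 of 7 tested members were called, against 0.0165% of all genes tested. No tested member reached an unadjusted p under 0.05, against 8.95% of all genes. The values of all 3 libraries with supernatant lay apart from all 3 on PEEK alone for 0 of these 7, against 15.2% of all genes, so these counts sit near the background. At an adjusted p under 0.1 the members called were still 0, against 0.11% of all genes. DESeq2 called 1 member, Ptgds, against 1.42% of the genes it adjusted, and limma on log2(FPKM + 1) called 0. Leaving out 1 library at a time also called 0 members, against 1.06%, 0.0265% and 0.0159% of all genes without replicates 1, 2 and 3 with supernatant, and 0.0053%, 0% and 0% without replicates 1, 2 and 3 on PEEK alone.

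**Figure D1:**
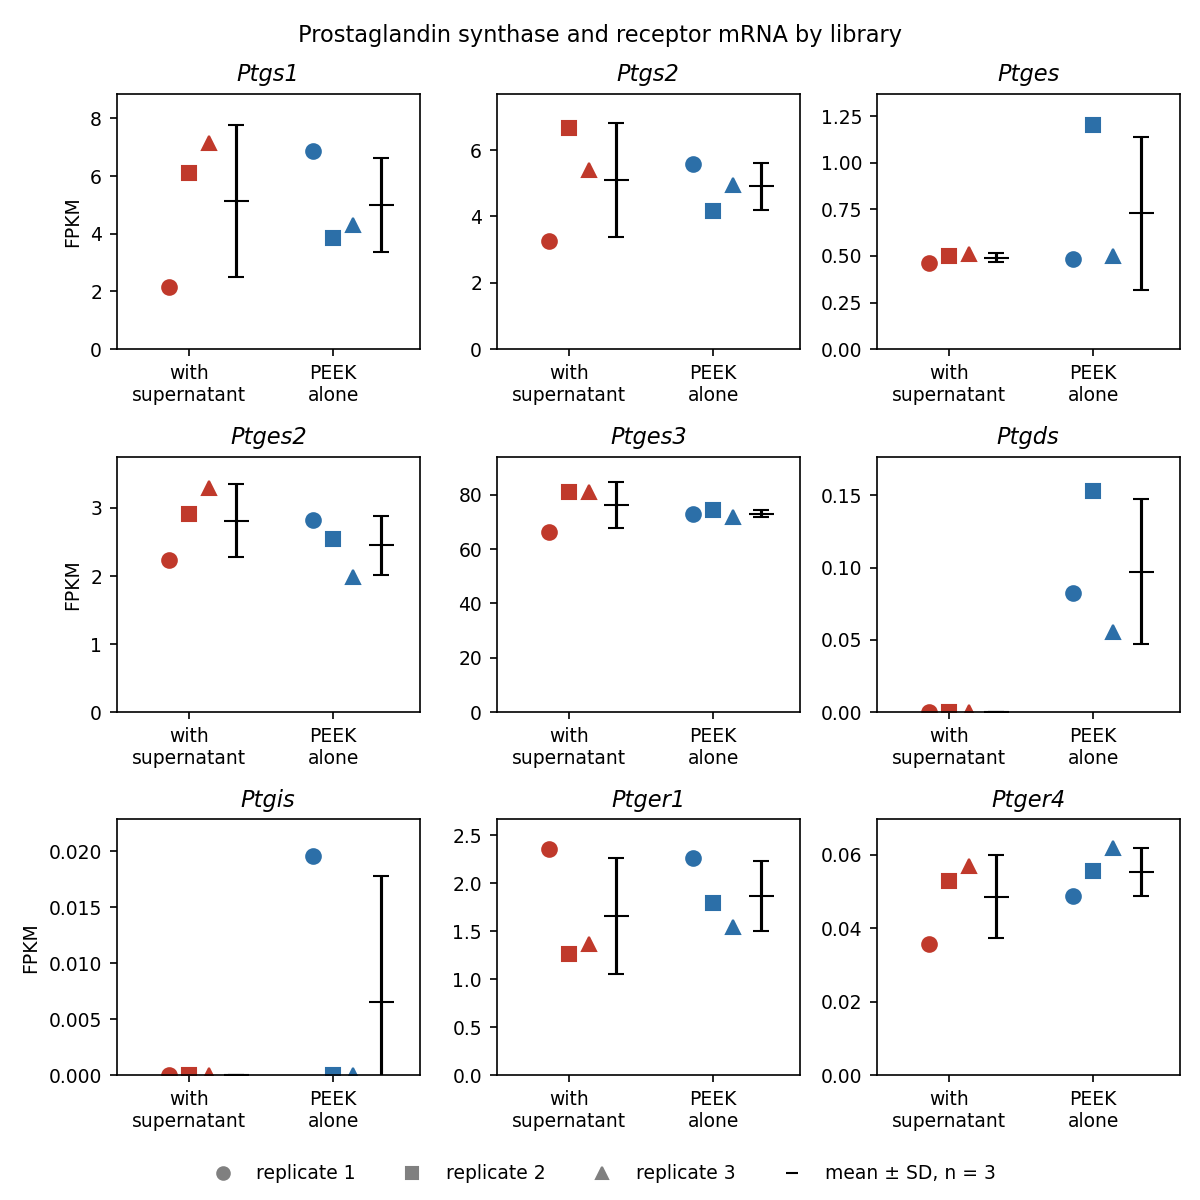
FPKM of the 9 members (y axis, each panel from 0) in the 3 libraries with supernatant (red) and the 3 on PEEK alone (blue), with the mean ± SD of each group (n = 3). The groups overlap in every panel except Ptgds, which is at 0 in all libraries with supernatant.

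FPKM is per length, so levels of different genes can be set side by side. Averaged over the 6 libraries, Ptges3 stood first at 74.6 FPKM, and its lowest library lay above every library of any other member. Ptgs1 (5.07 FPKM) and Ptgs2 (5.01 FPKM) followed with overlapping ranges. Ptges2 (2.63 FPKM) and Ptger1 (1.77 FPKM) came next, each overlapping its neighbour in this order. Ptges (0.610 FPKM) lay apart from the members above and below it. Ptger4 (0.0519 FPKM), Ptgds (0.0486 FPKM) and Ptgis (0.0033 FPKM) made up the low end, again with overlapping ranges.

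The cyclooxygenases stand at the head of the pathway. Ptgs1 encodes the constitutive form and lies on chromosome 2 from 36120438 to 36142284 as the deposited table places it; its build was left unnamed in the sources used here. Its level was 2.15, 6.10 and 7.16 FPKM with supernatant and 6.87, 3.85 and 4.30 FPKM on PEEK alone, in replicates 1, 2 and 3. The group with supernatant held both the lowest and the highest library, and the groups overlapped. The means were 5.14 ± 2.64 FPKM with supernatant and 5.00 ± 1.63 FPKM on PEEK alone (SD, n = 3 each). The log2 fold change, with supernatant minus PEEK alone, was 0.035 (SE 0.41, 95% interval −0.90 to 0.97, edgeR adjusted p = 0.986). Over the 6 libraries Ptgs1 spanned 3.33-fold, the widest range among the 7 tested members.

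Ptgs2 encodes the inducible cyclooxygenase and lies on chromosome 1 from 149975782 to 149983978, plus strand. It was at 3.27, 6.66 and 5.41 FPKM with supernatant and 5.59, 4.18 and 4.96 FPKM on PEEK alone. Replicate 1 with supernatant was the lowest of all libraries, as for Ptgs1, and replicate 2 with supernatant was the highest, so the groups overlapped. It averaged 5.11 ± 1.72 FPKM with supernatant and 4.91 ± 0.708 FPKM on PEEK alone (SD, n = 3 each), and the log2 fold change was 0.051 (SE 0.24, 95% interval −0.51 to 0.61, edgeR adjusted p = 0.970). That interval includes changes of either sign.

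The noncoding gene Ptgs2os is transcribed away from Ptgs2 on the minus strand, and 67 bases separate the annotated starts of both genes as deposited. It was at 1.23, 1.37 and 1.24 FPKM with supernatant and 1.70, 1.01 and 1.01 FPKM on PEEK alone (edgeR adjusted p = 0.979). Its highest library was replicate 1 on PEEK alone, not replicate 2 with supernatant as for Ptgs2.

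The balance of the cyclooxygenase mRNAs was close to even. Within a library the ratio of Ptgs2 to Ptgs1 FPKM was 1.52, 1.09 and 0.755 with supernatant and 0.814, 1.09 and 1.15 on PEEK alone. The mean log2 ratio was 0.11 ± 0.50 with supernatant and 0.0098 ± 0.27 on PEEK alone (SD, n = 3 each), a difference of 0.098 (exact two-sided permutation test, p = 0.9, also 0.9 adjusted over 2 ratios). An exact test of 3 against 3 cannot go below 0.1.

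**Figure D2:**
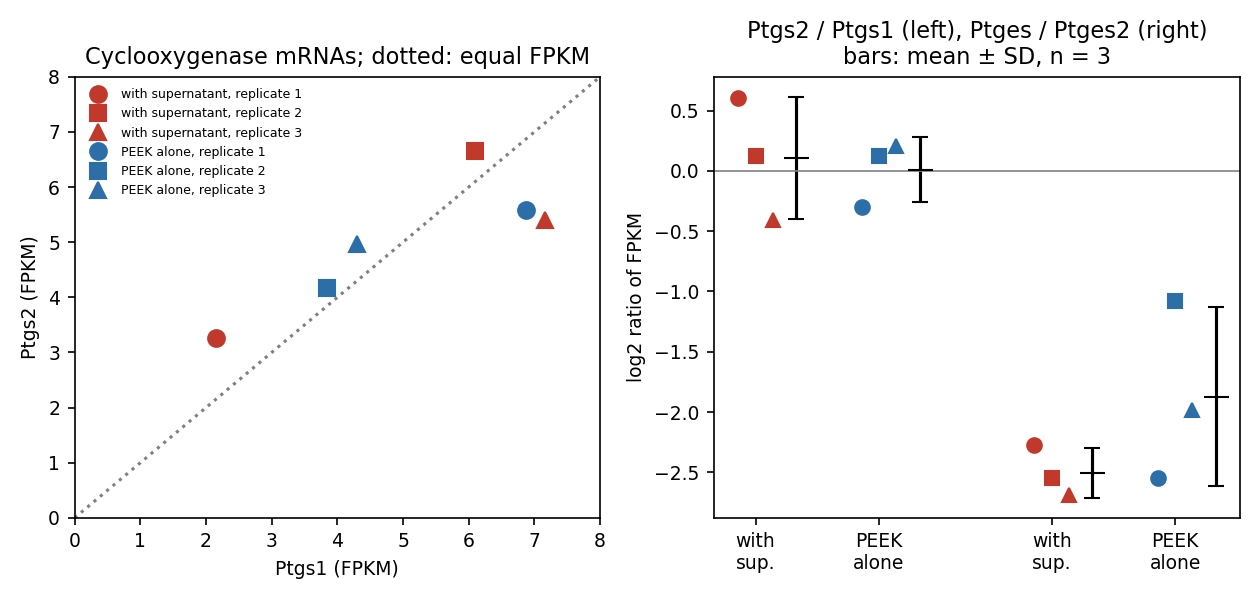
Left, Ptgs2 against Ptgs1 FPKM in the 6 libraries (red with supernatant, blue PEEK alone, with symbols for replicates 1, 2 and 3 in the legend), where the dotted line marks equal FPKM. Right, log2 ratios of Ptgs2 to Ptgs1 and of Ptges to Ptges2 per library with mean ± SD (n = 3). Replicate 1 with supernatant lies lowest on both axes at left, and the highest Ptges ratio is replicate 2 on PEEK alone.

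With 6 libraries in 2 groups, likeness of pattern is a description. Among 9690 named genes with a mean of at least 2 FPKM, Eif4g2 (Pearson r = 0.993), Tmed5 (0.993) and Bloc1s2 (0.992) followed Ptgs2 most closely in log2 CPM over the 6 libraries, and 52 genes exceeded 0.95. They encode a translation factor, a carrier protein of the early secretory pathway and a subunit of a lysosome-related organelle complex. As genes picked for this likeness, each was lowest in replicate 1 with supernatant and highest in replicate 2 with supernatant, as Ptgs2 was. The size of the spread differed: Eif4g2 ran from 84.9 to 99.7 FPKM, against 3.27 to 6.66 FPKM for Ptgs2. Tmed5 was at 9.34, 15.4 and 13.6 FPKM with supernatant and 13.3, 10.8 and 12.8 FPKM on PEEK alone. For Ptgs1 the same r with Ptgs2 was 0.911, and for Ptgs2os 0.453.

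Cyclooxygenase fold changes depended on single libraries, replicate 1 of each group among them. The titles call replicates 2 and 3 of each group biological replicates and give replicate 1 no such mark. For Ptgs1 and Ptgs2, replicate 1 was the lowest library with supernatant and the highest on PEEK alone. These were 2.15 and 6.87 FPKM for Ptgs1, and 3.27 and 5.59 FPKM for Ptgs2. Leaving both libraries out parts the groups by that choice, so the fit without them is a description. By correlation, replicate 1 on PEEK alone did not stand apart (mean 0.980 within its group, 0.978 with the other). Chi-square per gene, a measure of how far the counts of 2 libraries differ, set it further off. It was 60.3 and 56.3 against replicates 2 and 3 on PEEK alone, which had 25.4 between them. Against replicates 1, 2 and 3 with supernatant it was 70.6, 62.8 and 57.4. Over replicates 2 and 3 alone, Ptgs1 was at 6.10 and 7.16 FPKM with supernatant, against 3.85 and 4.30 FPKM on PEEK alone. Its log2 fold change was then 0.71 (edgeR adjusted p = 0.0171), and it was 1 of 7 tested members called, against 8.08% of all genes in that fit. Ptgs2 had 0.41 there (edgeR adjusted p = 0.126). In that fit 4 of 7 members (Ptgs1, Ptgs2, Ptges2 and Ptges3) had an unadjusted p under 0.05, against 23.9% of all genes. Leaving out only replicate 1 with supernatant gave 0.42 for Ptgs1 and 0.31 for Ptgs2 (edgeR adjusted p = 0.403 and 0.334), and leaving out only replicate 1 of PEEK alone gave 0.33 and 0.15 (edgeR adjusted p = 0.852 and 0.902). Without only replicate 2 with supernatant, Ptgs1 had −0.11 and Ptgs2 −0.20, and without only replicate 3 with supernatant −0.28 and 0.011. Without only replicate 2 on PEEK alone they had −0.12 and −0.051, and without only replicate 3 on PEEK alone −0.059 and 0.063. Of the 10 osteoblast markers, 8 had their highest level and 2 (Spp1 and Phex) their lowest in replicate 1 with supernatant. Alpl, the alkaline phosphatase gene, was at 20.6, 5.95 and 4.91 FPKM with supernatant and 3.93, 7.08 and 6.46 FPKM on PEEK alone, and Spp1, the osteopontin gene, at 114, 215 and 240 FPKM with supernatant and 220, 209 and 193 FPKM on PEEK alone. Their part in the cyclooxygenase values was not tested.

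**Figure D3:**
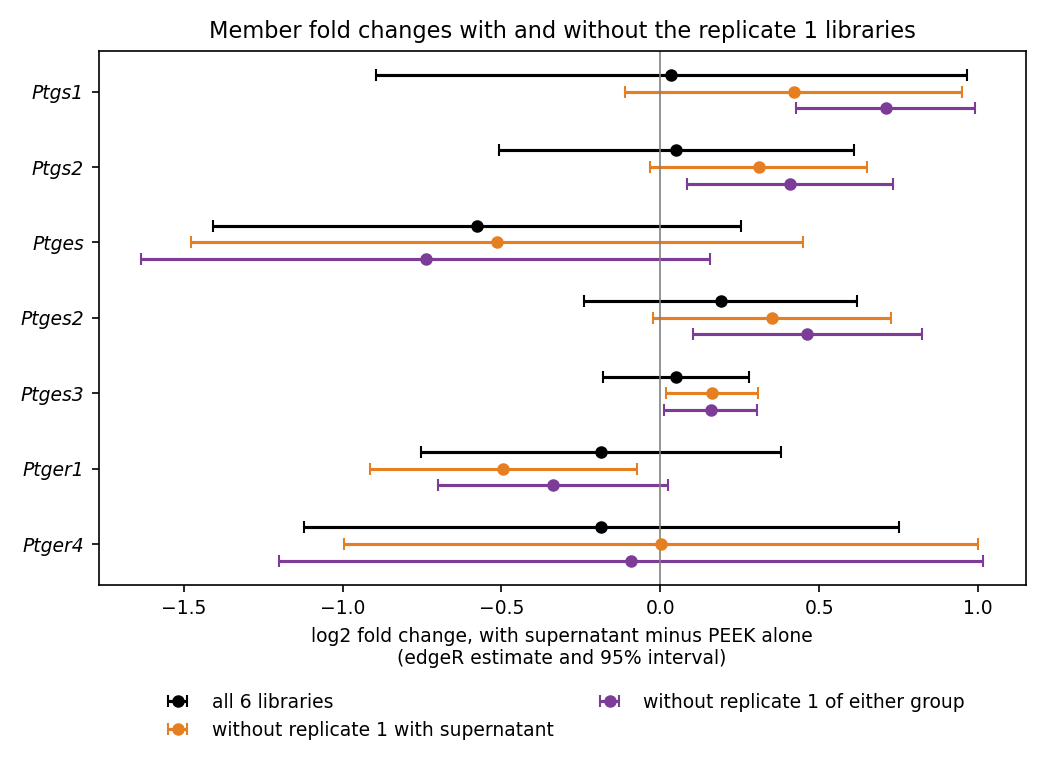
Log2 fold changes of the 7 tested members (x axis, with supernatant minus PEEK alone, edgeR estimate and 95% interval) from all 6 libraries (black), without replicate 1 with supernatant (orange) and without replicate 1 of either group (purple). Every interval from all 6 libraries includes 0, and Ptgs1 lies at 0.71 without replicate 1 of either group. Fits without other single libraries are not drawn.

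PGE2 is made by 3 terminal synthases. Ptges, the microsomal enzyme usually induced together with Ptgs2, is on chromosome 2 from 30779483 to 30793309. It was at 0.463, 0.500 and 0.511 FPKM with supernatant and 0.483, 1.20 and 0.500 FPKM on PEEK alone. Of the 6 libraries 5 lay between 0.463 and 0.511 FPKM, and replicate 2 on PEEK alone, with 406 counts, was the exception. The log2 fold change of −0.58 (SE 0.36, 95% interval −1.41 to 0.25, edgeR adjusted p = 0.692) became −0.0092 without that library. The ratio of Ptges to Ptges2 was 0.206, 0.172 and 0.155 with supernatant and 0.171, 0.472 and 0.253 on PEEK alone, with mean log2 ratios of −2.50 ± 0.21 with supernatant and −1.87 ± 0.74 on PEEK alone (SD, n = 3 each; difference −0.63, exact two-sided permutation test, p = 0.3, adjusted over 2 ratios 0.6).

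Ptges2, the membrane-associated synthase, was at 2.24, 2.91 and 3.29 FPKM with supernatant and 2.83, 2.55 and 1.98 FPKM on PEEK alone, on chromosome 2 from 32285908 to 32295784. Replicates 2 and 3 with supernatant were the highest libraries and replicate 3 on PEEK alone the lowest. The log2 fold change was 0.19 (SE 0.19, 95% interval −0.24 to 0.62, edgeR adjusted p = 0.818). It ranged from 0.061 to 0.35 when single libraries were left out and was 0.46 without replicate 1 of either group (edgeR adjusted p = 0.119). Its mean FPKM over the 6 libraries was 4.32-fold that of Ptges.

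Ptges3, the cytosolic synthase that is also an HSP90 cochaperone, was at 66.4, 80.9 and 81.2 FPKM with supernatant and 73.0, 74.2 and 71.8 FPKM on PEEK alone, on chromosome 10 from 127894823 to 127913141. Libraries with supernatant stood on either side of those on PEEK alone. It was the steadiest member, with a 1.22-fold range, and its log2 fold change was 0.049 (SE 0.10, 95% interval −0.18 to 0.28, edgeR adjusted p = 0.919). A pseudogene copy, Ptges3-ps on chromosome 6, was listed at 65.9 to 96.5 FPKM in the same libraries, and since the sources used here do not say how reads with several matches were treated, the split of reads between gene and copy is uncertain.

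The prostaglandin D2 and prostacyclin synthase genes among the members were near the detection limit. Ptgds, the lipocalin-type prostaglandin D2 synthase, is on chromosome 2 from 25356721 to 25360058. It had 0, 0 and 0 counts with supernatant and 11, 22 and 8 counts on PEEK alone, where the level was 0.0557 to 0.153 FPKM. It was the 1 member in the table whose groups did not overlap, and it had too few counts for the edgeR test. Taking 3 counts over the group as the floor for a count of 0, Ptgds was at least 13.4-fold lower with supernatant. This bound covers the counting error of the 0 counts only, not the spread between libraries. DESeq2 gave Ptgds an adjusted p = 0.0480, and edgeR without a low-count filter an adjusted p = 0.543. Over all 29255 genes with any count, 0.267% had 0 counts in every library with supernatant and a count in every library on PEEK alone, and 0.414% showed the opposite. Among the 3905 genes with a total within 2-fold of that of Ptgds the shares were 0.563% and 1.1%, so such a pattern of counts occurred at this depth in both directions. Ptgis, the prostacyclin synthase gene, had 0 counts in every library with supernatant and 4, 0 and 0 counts on PEEK alone, and no fold is given.

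Of the PGE2 receptors, Ptger1 couples to calcium signalling and Ptger4 raises cAMP. Ptger1 was at 2.36, 1.26 and 1.37 FPKM with supernatant and 2.27, 1.80 and 1.55 FPKM on PEEK alone. Replicate 1 was the highest library of each group, and the log2 fold change was −0.19 (SE 0.25, 95% interval −0.75 to 0.38, edgeR adjusted p = 0.869). Without replicate 1 with supernatant it was −0.49 (edgeR adjusted p = 0.222). Ptger1 lies on chromosome 8 from 84393307 to 84399382, plus strand. The libraries mark strand, but the sources used here do not say whether counting used it, so for any member reads of genes that overlap on opposite strands cannot be told apart.

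Ptger4 was barely detected, with 20, 28 and 32 counts with supernatant and 26, 33 and 34 counts on PEEK alone, or 0.0357 to 0.0569 FPKM with supernatant and 0.0486 to 0.0618 FPKM on PEEK alone. The lowest library had supernatant and the highest did not, but the groups overlapped. Its log2 fold change was −0.19 (SE 0.41, 95% interval −1.12 to 0.75, edgeR adjusted p = 0.927), an interval too wide to show a difference of that size at this depth. On chromosome 15 from 5236142 to 5273653 it overlaps Ttc33, a gene of the other strand at 9.42 to 12.3 FPKM, by 11676 bases. By mean FPKM over the 6 libraries, Ptger1 stood 34.0-fold above Ptger4. In bulk libraries such as these, fewer cells with an mRNA and less of it per cell cannot be told apart.

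The other genes of the pathway were grouped in 8 lists, and 0 of their 80 tested genes passed edgeR's test, with 5 higher and 9 lower at an unadjusted p under 0.05. That is 14 of 80, beside 8.95% of all genes tested. DESeq2 called 4 of the 95 list genes it fitted, beside 1.42% of all the genes it adjusted. The lists were chosen with earlier results known, so these counts are a description. Upstream of the cyclooxygenases, among genes of arachidonic acid release and re-uptake, 0 of 14 tested passed and the median log2 fold change was 0.035, beside −0.0093 over all genes tested. Pla2g4a, the cytosolic phospholipase that frees arachidonic acid, was at 4.68, 7.35 and 6.57 FPKM with supernatant and 6.26, 6.50 and 7.04 FPKM on PEEK alone, with replicate 1 with supernatant again the lowest (edgeR adjusted p = 0.895). Pla2g6, a calcium-independent phospholipase, had a log2 fold change of 0.27, and Lpcat3, which puts arachidonate back into phospholipids, −0.22 (edgeR adjusted p = 0.449 and 0.453). The groups did not overlap in either, nor in 3 of the 14 tested genes of this list with these included. Over all lists this held for 11 of 80 tested genes, beside 15.2% of all genes tested.

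Of the other prostanoid synthases, 0 of 6 tested passed (median log2 fold change −0.037). Akr1b3, an aldose reductase with prostaglandin F synthase activity, was at 18.3, 34.4 and 35.7 FPKM with supernatant and 20.2, 16.9 and 21.1 FPKM on PEEK alone. Replicates 2 and 3 with supernatant were the highest libraries and replicate 1 lay within the range of PEEK alone. The log2 fold change was 0.60 (SE 0.24, edgeR adjusted p = 0.513). Without replicate 1 with supernatant it was 0.87 (edgeR adjusted p = 0.0234, against 1.06% of all genes called in that fit). Cbr1, a carbonyl reductase, had −0.14 (edgeR adjusted p = 0.763). The haematopoietic prostaglandin D synthase gene Hpgds and the thromboxane synthase gene Tbxas1 had means of 0.0465 and 0.0572 FPKM with supernatant and 0.0420 and 0.0604 FPKM on PEEK alone.

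Of the other prostanoid receptors, 0 of 5 tested passed (median log2 fold change −0.060). The prostacyclin receptor gene Ptgir was at 0.593, 0.936 and 0.776 FPKM with supernatant and 0.550, 0.859 and 0.755 FPKM on PEEK alone (edgeR adjusted p = 0.951). Ptger3, a further PGE2 receptor gene, had 3 counts in 1 library with supernatant and 0 in the other 5. Ptgfrn, listed here although it encodes a partner protein of the prostaglandin F receptor rather than a receptor, had a log2 fold change of −0.060 (edgeR adjusted p = 0.900).

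Among genes of export, uptake and breakdown 0 of 6 tested passed (median log2 fold change 0.024). Zadh2, a prostaglandin reductase gene, was at 4.76, 5.66 and 5.43 FPKM with supernatant and 6.55, 6.45 and 6.14 FPKM on PEEK alone, without overlap (log2 fold change −0.28, edgeR adjusted p = 0.499). The uptake transporter gene Slco2a1 had 18, 149 and 84 counts with supernatant and 42, 46 and 59 counts on PEEK alone (edgeR adjusted p = 0.758). Hpgd, the main catabolic dehydrogenase of prostaglandins, had 4, 0 and 0 counts with supernatant and 0, 0 and 0 counts on PEEK alone. In the lipoxygenase branch 0 of 5 tested passed (median −0.10); the epoxide hydrolase gene Ephx2 had 0.54 and the lipoxygenase gene Alox12 −0.98 (edgeR adjusted p = 0.623 and 0.697), while Alox5 and Alox15 had 0 counts in every library with supernatant and at most 5 in any on PEEK alone.

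Regulators of Ptgs2 transcription and mRNA decay had a median log2 fold change of −0.00079, and 0 of 16 passed. Runx1 and Egr1, transcription factor genes, came closest (0.68 and −0.92, edgeR adjusted p = 0.0562 for both), and DESeq2 called both. Runx1 was at 7.21, 7.52 and 7.61 FPKM with supernatant and 4.60, 4.95 and 4.24 FPKM on PEEK alone. Whether Runx1 bears on Ptgs2 levels was not tested. Of 14 tested cAMP and PGE2 response genes 0 passed (median −0.037), with Sik1, a kinase gene, at 0.32 and Nr4a3, an orphan nuclear receptor gene, at −0.82 (edgeR adjusted p = 0.376 and 0.517). Of 15 tested inflammatory genes often induced with Ptgs2 0 passed, 1 was higher and 4 lower at an unadjusted p under 0.05, and the median was −0.34. Over all 18177 genes tested, 846 were higher and 781 lower at that p, and the median was −0.0093. Cxcl1, a neutrophil chemokine gene, had −0.44 and Nos2, the inducible nitric oxide synthase gene, −0.73 (edgeR adjusted p = 0.287 and 0.415), and DESeq2 called both, with adjusted p = 0.0286 each. Leaving out single libraries gave −0.52 to −0.37 for Cxcl1 and −0.93 to −0.44 for Nos2. Both were weakest without replicate 2 on PEEK alone (edgeR adjusted p = 0.718 and 0.858). Without replicate 1 of either group, Cxcl1 had −0.47 and Nos2 −1.07 (edgeR adjusted p = 0.0176 and 0.0121). That fit called 8.08% of all genes.

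**Figure D4:**
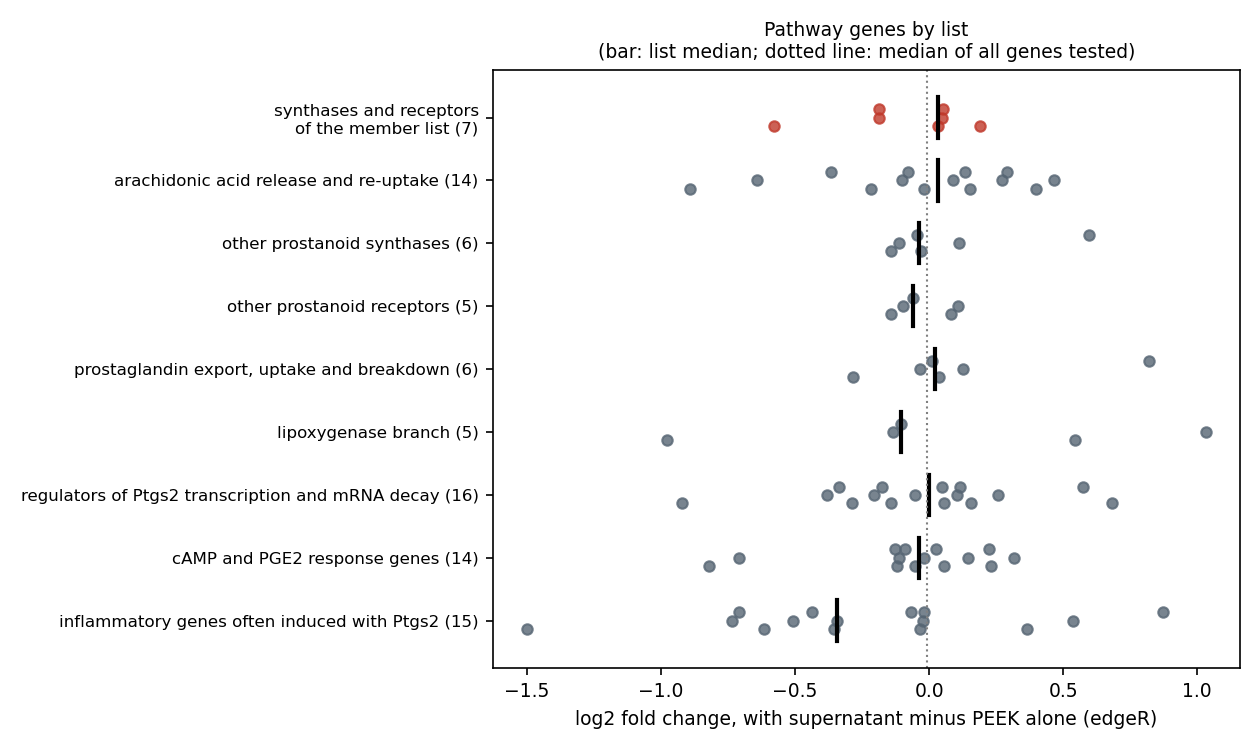
Log2 fold changes (x axis, with supernatant minus PEEK alone, edgeR) of the tested members (red) and of the tested genes of the 8 pathway lists (grey), each row with its number of genes and its median as a bar, and the median of all genes tested as a dotted line. No point passed the test; the member median was 0.035 and that of the inflammatory list −0.34.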

How the data were processed

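RNA was measured by poly(A)-selected, dUTP-marked RNA-seq in 6 libraries, grouped by the treatment label, with replicates numbered by library name. Per the submitters' processing notes, the tools included HISAT2 2.2.1 and cutadapt 1.9. The deposited table holds raw counts per gene and FPKM, the authors' values scaled for gene length and depth, per the file headers. The adapters carried molecular identifiers; their use, the strand setting, the counter and the build were not given in the sources used here.

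Counts were tested with edgeR 4.0.16 in R 4.3.3: TMM, filterByExpr (minimum count 10, total 15), quasi-likelihood tests on group alone, and a threshold of 0.05 on the Benjamini-Hochberg adjusted p. Standard errors are the log2 fold change over the square root of F. Levels are FPKM, and ratios were compared by exact permutation (scipy 1.17.1). DESeq2 1.42.0, limma 3.58.1 and the other alternatives are given in the closing section. The code was tested on simulated counts.

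Members and lists were chosen with earlier results of these data known. Named genes were all members, up to 4 genes past the threshold per list or else the 2 of smallest p, and the 3 genes most like Ptgs2; others are named for their role or after their values were seen. Ptger2, and so its planned ratio with Ptger4, was not analysed here. Separate cultures are not stated by the labels beyond the words biological replicate in some titles, so the p-values reflect spread among libraries that may be technical. No libraries were copies (chi-square per gene 25.4 to 112). Counting limits cover counting error only. Not every overlap between genes is reported here.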

Additional observations from a re-analysis of the deposited data

How the results depend on the processing

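With 15 alternative fits and 1 looser threshold, 0 members stayed the result in all but 2: DESeq2 called 1 member (Ptgds), and so did edgeR without replicate 1 of either group (Ptgs1). Leaving out single libraries called 0 members each time. Over all genes, in place of 3, DESeq2 called 294, no low-count filter 0, a minimum of 50 counts in 3 libraries 16, limma without a filter 0, an adjusted p under 0.1 20, leaving out single libraries 0 to 199, and leaving out both replicate 1 libraries 1485. Of the pathway list genes, in place of 0, these called 4 (DESeq2), 2 (minimum of 50 counts), 0 to 4 (single libraries left out) and 12 (both replicate 1 libraries left out). Same-numbered libraries deviated from their group means with correlations of −0.030, −0.012 and 0.019, so the numbers were not read as pairs; with the replicate number as a block, 0 genes and 0 members were called, Ptgs1 had −0.061 and Ptgs2 −0.0027. The sign of small fold changes turned: Ptgs1 was −0.049 by limma on log2(FPKM + 1), with or without a filter, −0.085 with a pseudocount of 0.1, and −0.28 to 0.71 when single libraries or both replicate 1 libraries were left out. In those fits Ptgs2 ranged from −0.20 to 0.41, Ptges3 from −0.0067 to 0.16, Ptger4 from −0.30 to 0.0018, Ptgfrn from −0.12 to 0.048 and Ptgir from −0.10 to 0.26, with Ptgfrn at 0.011 without both replicate 1 libraries. The log2 difference of the Ptgs2 to Ptgs1 ratio ranged from −0.15 to 0.36 and was −0.30 without both replicate 1 libraries. For these the cause was not tested. Depth limits Ptger4, Ptgds and Ptgis.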

Other observations

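Replicate 2 on PEEK alone, the library highest in Ptges, was also the highest in some other genes of the lists, which were picked here after their values were seen. Icam1, a leukocyte adhesion molecule gene, was at 0.228, 0.154 and 0.178 FPKM with supernatant and 0.208, 1.15 and 0.211 FPKM on PEEK alone. Nos2 was at 28.2, 21.2 and 19.97 FPKM with supernatant and 26.7, 51.8 and 35.3 FPKM on PEEK alone. Cebpd, a transcription factor gene of the acute phase response, was at 5.58, 6.04 and 6.78 FPKM with supernatant and 4.15, 9.63 and 2.55 FPKM on PEEK alone. Ptgs2 did not share this: replicate 2 was the lowest PEEK alone library, at 4.18 FPKM. Other list genes peaked elsewhere, such as Pla2g4a in replicate 2 with supernatant and Akr1b3 in replicate 3 with supernatant. How many genes peaked in replicate 2 on PEEK alone was not counted.

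Levels of carbonyl and aldo-keto reductase genes in the list of other prostanoid synthases ranged widely. Cbr3 had 1 count and Akr1c18 had 0 counts over all 6 libraries. Cbr2 averaged 62.7 ± 13.2 FPKM with supernatant and 63.9 ± 18.8 FPKM on PEEK alone, and Akr1b8 36.4 ± 5.61 FPKM with supernatant and 36.9 ± 2.28 FPKM on PEEK alone (SD, n = 3 each; edgeR adjusted p = 0.967 for both).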
